A study of Mus musculus with 14 samples.

Results

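Transcript levels of 10 genes that encode subunits of the transcription factor AP-1 were followed in mouse leukemic stem cells (LSCs). They were set by name, with no threshold on their values, from the 24463 genes listed for each library. They are the FOS family (Fos, Fosb, Fosl1 and Fosl2), the JUN family (Jun, Junb and Jund) and the related genes Atf3, Batf and Batf3, and all 10 were found in every library. RNA was measured in 14 libraries. Cells labelled as deficient in the Wnt-pathway transcription factors Tcf1 (gene Tcf7) and Lef1 (dKO, n = 3) were set against cells of control mice (WT, n = 3). LSCs made from control marrow were treated for 6 h with 20 µM prostaglandin E1 (PGE1, n = 3), 20 µM prostaglandin E2 (PGE2, n = 2) or the vehicle DMSO (n = 3). In all 5 groups, lineage-negative bone marrow cells had been grown with stem cell factor (50 ng/ml), thrombopoietin (20 ng/ml) and serum at 15%. They were infected at 0 h and again at 24 h with a retrovirus carrying p210 BCR-ABL, the fusion kinase of chronic myeloid leukemia. The cells sorted at 48 h as lineage-negative, c-Kit+, Sca1+ and GFP+ were taken as LSCs, a short-term model made in culture. The alleles of Tcf7 and Lef1, any Cre driver, strain, age and pooling of animals are not given in the sources used.

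AP-1 is a dimer of basic leucine zipper (bZIP) proteins. JUN proteins pair with each other or with FOS proteins, whereas FOS proteins need a JUN partner, and the dimers bind the phorbol ester response element or the cyclic AMP response element (CRE) of their targets. Fos, Fosb, Jun, Junb and Atf3 are immediate early genes, switched on within minutes by serum, growth factors or stress through MAP kinases, serum response factor and CREB, while Jund is made more steadily. In blood cells AP-1 takes part in monocyte differentiation, and prostaglandins of the E type signal through receptors that include those raising cyclic AMP.

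Reads in genes, recovered from the deposited values, ran from 19.0 to 20.6 M in dKO libraries, 19.2 to 19.9 M in WT, 11.6 to 13 M after PGE1, 11.3 to 13 M after PGE2 and 12.6 to 13.4 M after DMSO. The labels do not tie replicates to separate animals or cultures; p-values therefore reflect the spread between these libraries alone, and that spread may be technical. Tcf7 averaged 7.62% of its WT level in dKO and Lef1 53.5% (exact permutation test, two-sided, p = 0.1 for both genes with 3 libraries a group, the smallest p possible), so the Lef1 level alone does not show a full loss of its transcript, and the deleted exons are not given in the sources used. The genotype field of dKO replicate 1 reads wild type and that of DMSO replicate 1 reads deficient. Groups follow the titles, as does Tcf7 in both libraries, and values without these libraries are given with the results. Of the genes behind the sort, Ly6a (Sca1) averaged 3.12 ± 0.358 FPKM in dKO and 11.3 ± 1.20 FPKM in WT (SD, n = 3 each), and Kit averaged 23.0 ± 2.56 FPKM in dKO and 28.0 ± 0.629 FPKM in WT. The Y-linked Ddx3y was listed at 0 in all 3 dKO libraries and averaged 8.45 ± 0.646 FPKM in WT (SD, n = 3). Xist, a transcript of female cells, averaged 21.9 ± 8.29 FPKM in dKO and 10.1 ± 0.385 FPKM in WT. The WT libraries thus held both, and genotype and sex of the donor mice cannot be told apart.

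The members lie on 7 chromosomes, with Fos and Batf close together on chromosome 12 and Jdp2 between them. Proximal promoters are shown for the pair that differed most in dKO (Fos and Fosb) and for the pair whose levels ran most alike (Jun and Junb). They come from RefSeq on GRCm38.p6, which is not the build of the files, and a promoter entry was found for 9 of the 10 members. Each window holds up to 250 bases before the annotated start, less any that another annotated transcript covers. Capitals mark TGACG, the core that begins the CRE.
Fos promoter, chr12:85473640-85473889, plus strand: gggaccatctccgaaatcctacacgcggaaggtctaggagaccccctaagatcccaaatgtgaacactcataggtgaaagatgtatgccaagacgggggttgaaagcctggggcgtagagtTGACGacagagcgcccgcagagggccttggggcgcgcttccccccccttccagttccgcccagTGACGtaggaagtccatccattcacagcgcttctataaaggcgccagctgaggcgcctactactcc
Fosb promoter, chr7:19310119-19310295, minus strand: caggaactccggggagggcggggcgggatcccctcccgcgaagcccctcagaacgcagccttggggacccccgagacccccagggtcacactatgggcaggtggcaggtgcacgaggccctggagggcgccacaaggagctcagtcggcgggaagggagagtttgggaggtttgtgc
Jun promoter, chr4:95052223-95052472, minus strand: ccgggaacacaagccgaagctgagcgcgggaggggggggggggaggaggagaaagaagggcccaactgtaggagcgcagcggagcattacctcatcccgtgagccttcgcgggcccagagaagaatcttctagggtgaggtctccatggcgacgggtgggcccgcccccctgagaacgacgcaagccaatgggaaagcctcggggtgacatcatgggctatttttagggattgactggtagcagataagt
Junb promoter, chr8:84978749-84978998, minus strand: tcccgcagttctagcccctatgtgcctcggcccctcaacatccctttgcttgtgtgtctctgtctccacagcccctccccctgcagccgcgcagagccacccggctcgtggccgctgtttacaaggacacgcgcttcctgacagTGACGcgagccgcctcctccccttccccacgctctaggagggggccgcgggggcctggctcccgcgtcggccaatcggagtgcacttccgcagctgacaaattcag

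Searched on both strands, the 250 bases before the start held TGACG in 5 of 9 members, against 17.8% of 32851 mouse promoters of that length. Fos held it at bases -129 to -125 and at -66 to -62, Junb at -106 to -102 and Batf at -98 to -94. Fosb held it at -60 to -56, inside the bases left off above, and Atf3 held it as CGTCA at -7 to -3. No member window held the full CRE (TGACGTCA, 1.55% of all promoters, which overlaps TGACG), the phorbol ester element (TGANTCA, 6.75%) or the CArG box of serum response factor (1.47%). Only exact matches were sought, so variant sites and sites farther than 250 bases from the start would be missed. The Tcf/Lef core (CTTTGA or CTTTGT, 27.6% of all promoters) was found in Jund alone, at -141 to -136 on the minus strand as ACAAAG. In the GENCODE annotation the first start of Jund lies 1210 bases after the one used here. The Jund window may therefore not be its proximal promoter. For Atf3, Fosl2 and Batf3 the first GENCODE start lies before the one used here, at -34706, -671 and -567 bases from it. Their windows fall wholly after that first start, so the same limit holds for them. Atf3 is counted among the 5 members with TGACG. These matches describe letters in these windows and not binding.

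The FOS family held the widest swings of level among the members. Fos, the founding member, had 4.95, 3.73 and 2.35 FPKM (fragments scaled to gene model length and library depth) in the dKO libraries, against 152, 154 and 158 FPKM in WT. It had 99.7, 129.9 and 111 FPKM after PGE1 and 213 and 233 FPKM after PGE2, against 131, 106 and 116 FPKM after DMSO. Fos was therefore low in each dKO library, highest in the 2 PGE2 libraries, and overlapping between PGE1 and DMSO.

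Fosb, a close paralog of Fos, had 0.567, 0.392 and 0.0640 FPKM in dKO, against 105, 104 and 106 FPKM in WT. These dKO values rest on 67, 50 and 8 reads, against 12574 to 13330 reads in WT. Fosb was thus close to absent from every dKO library and nearly the same in the 3 WT libraries. It had 0.806, 0.923 and 0.794 FPKM after PGE1 (67, 68 and 63 reads) and 86.8 and 90.1 FPKM after PGE2, against 108, 120.0 and 124 FPKM after DMSO. The PGE1 libraries stood near the dKO level and the PGE2 libraries near the DMSO level, and no library fell between.

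Fosl2 (Fra-2), a later-acting FOS protein without the strong activation domain of Fos, had 2.72, 1.82 and 1.92 FPKM in dKO, against 5.84, 5.87 and 5.50 FPKM in WT. It had 54.6, 48.9 and 51.4 FPKM after PGE1 and 17.5 and 16.3 FPKM after PGE2, against 11.8, 14.3 and 14.5 FPKM after DMSO. Each PGE1 library lay far above all others for this gene, and the order of the group means was PGE1, PGE2, DMSO, WT and dKO without overlap between neighbours. Fosl1 (Fra-1) ranged from 2.23 to 5.46 FPKM in dKO, 4.79 to 5.11 FPKM in WT, 3.71 to 6.97 FPKM after PGE1, 6.52 to 7.08 FPKM after PGE2 and 5.45 to 7.29 FPKM after DMSO. Its compared groups overlapped, except that the DMSO libraries lay above the WT ones, and its exons overlap those of Ccdc85b on the other strand, so reads of this pair cannot be told apart where strand handling is not given.

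In the JUN family the members parted by gene. Jund, the most steadily expressed JUN gene in many cells, had 48.8, 29.8 and 34.1 FPKM in dKO, against 169, 162 and 168 FPKM in WT. It had 56.7, 60.1 and 54.9 FPKM after PGE1 and 76.4 and 81.0 FPKM after PGE2, against 230.4, 267 and 280.5 FPKM after DMSO. After either prostaglandin Jund was thus below every DMSO and WT library, and the dKO libraries were lowest.

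Jun, the strongest activator among the JUN proteins, had 13.7, 5.73 and 5.43 FPKM in dKO, against 20.9, 22.1 and 20.8 FPKM in WT. It had 36.8, 42.6 and 36.8 FPKM after PGE1 and 33.8 FPKM in both PGE2 libraries, against 32.7, 30.6 and 31.9 FPKM after DMSO. The first dKO library stood well above the other two, and every treated library stood above every untreated one. Junb, which can restrain Jun, had 43.0, 33.6 and 34.0 FPKM in dKO and 58.0 to 59.5 FPKM in WT. It ranged from 73.7 to 84.1 FPKM after PGE1, 73.4 to 77.8 FPKM after PGE2 and 68.1 to 75.9 FPKM after DMSO, and the 3 treated groups overlapped. Jun, Junb and Jund each share exon bases with a gene on the other strand (Junos, Prdx2 and Gm11175). Reads of these pairs cannot be told apart there either, and Junos and Gm11175 are not among the genes listed. Prdx2 averaged 47.0 ± 1.38 FPKM in dKO and 50.3 ± 0.711 FPKM in WT (SD, n = 3 each). It averaged 36.9 ± 4.82 FPKM after PGE1 (n = 3), 43.0 ± 1.46 FPKM after PGE2 (n = 2) and 39.2 ± 3.89 FPKM after DMSO (n = 3).

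Atf3, a stress-induced partner that can repress as a dimer with itself, had 2.95, 0.958 and 0.750 FPKM in dKO, against 7.0, 6.85 and 6.23 FPKM in WT. It had 8.53, 10.8 and 7.80 FPKM after PGE1 and 10.2 and 9.83 FPKM after PGE2, against 18.3, 17.2 and 18.9 FPKM after DMSO. The dKO libraries were lowest, and the PGE1 and PGE2 libraries overlapped each other below DMSO. Batf, which pairs with JUN proteins and lacks an activation domain, had 15.2, 19.1 and 18.02 FPKM in dKO and 14.4 to 16.0 FPKM in WT. It had 11.1, 9.69 and 9.42 FPKM after PGE1 and 15.1 and 15.0 FPKM after PGE2, against 14.3, 12.96 and 13.2 FPKM after DMSO. Batf was the member whose mean was higher in dKO than in WT, with overlapping libraries, and the PGE1 libraries were the lowest of all. Batf3, its paralog, required for a class of dendritic cells, had at most 2.46 FPKM in any library, at 0.498 to 0.898 FPKM in dKO, 1.44 to 2.46 FPKM in WT, 0.267 to 0.894 FPKM after PGE1, 1.77 to 2.32 FPKM after PGE2 and 1.37 to 2.10 FPKM after DMSO.

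**Figure D1:**
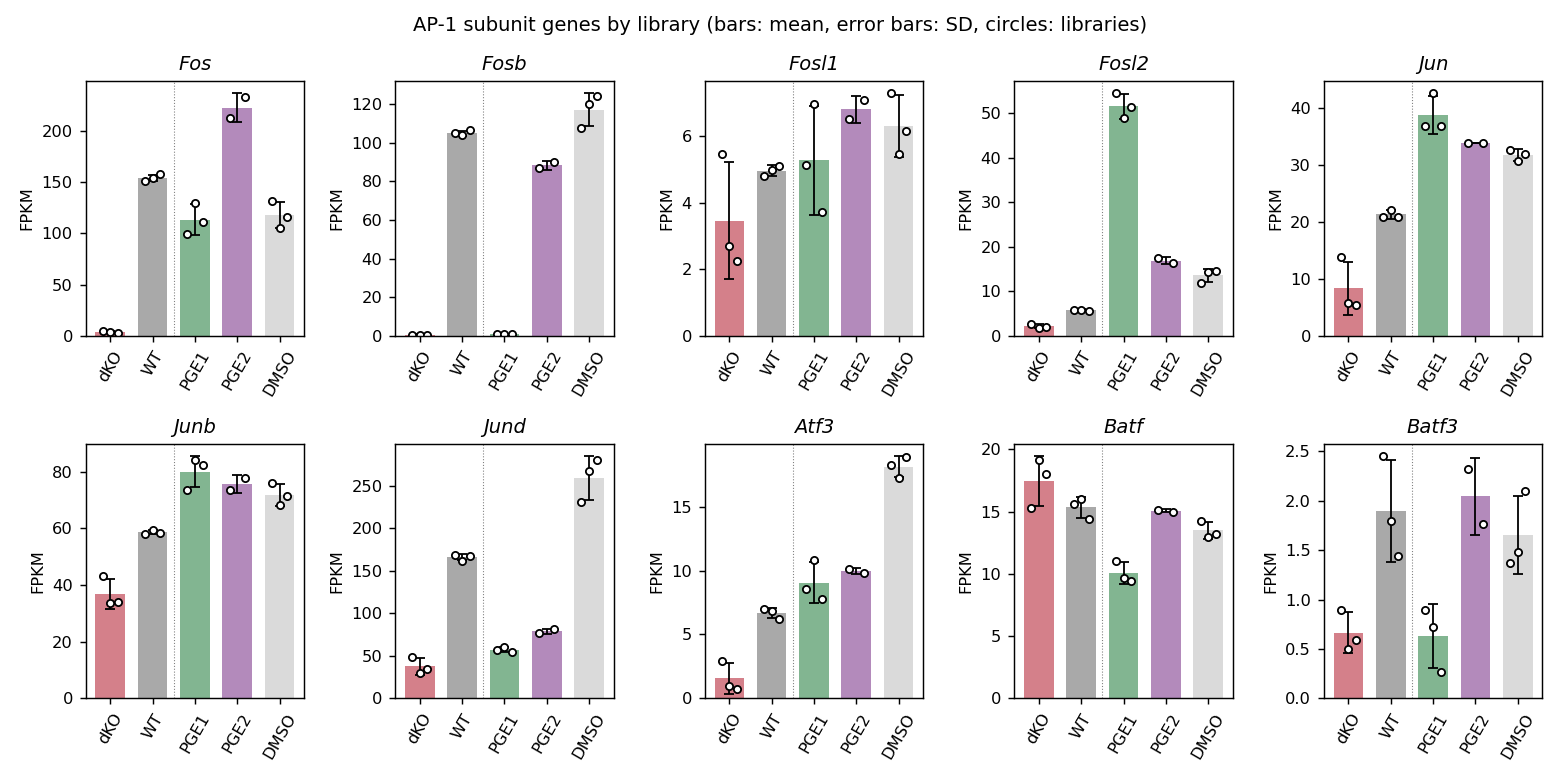
FPKM of each AP-1 subunit gene by group, with bars for the mean, error bars for the SD and circles for libraries (n = 3, PGE2 n = 2). The dKO and PGE1 libraries lie at or under 0.923 FPKM for Fosb, and PGE1 libraries reach 48.9 to 54.6 FPKM for Fosl2.

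In dKO cells, AP-1 transcripts were lower than in WT in all 3 families. Of the 10 members, 8 were lower in dKO, 0 were higher and 2 did not pass (limma, adjusted p below 0.05 over 10721 genes), where 22.9% of all genes tested were lower and 18% higher. Fosb was 308-fold lower by the ratio of group means and Fos 42.0-fold lower, and on the log2 scale these were the largest and the next largest differences of all genes tested. Jund followed at 4.41-fold lower, Atf3 at 4.32-fold and Batf3 at 2.86-fold. Of all genes called in this comparison 44.1% were higher in dKO, and this share was 56.1% after median-of-ratios scaling and 60.2% after quantile normalization, with 8 members lower and 0 higher under both. In these bulk samples, fewer cells of a type and less RNA per cell cannot be told apart.

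Fosb differed by -6.32 (SE 0.126, limma adjusted p = 1.26e-07) and Fos by -5.09 (SE 0.177, adjusted p = 1.15e-06), dKO minus WT, on the scale of log2(FPKM + 1), where changes of low genes come out too small. Fosl2 differed by -1.11 (SE 0.107, limma adjusted p = 0.000194), a 2.66-fold lower mean. The JUN genes differed by -2.14 for Jund (limma adjusted p = 4.05e-05), -1.37 for Jun (0.00724) and -0.66 for Junb (0.000893). The dKO libraries of these 6 genes lay below their WT libraries, as did those of Atf3 and Batf3. How many of all genes tested show no overlap was not counted. Atf3 differed by -1.69 (limma adjusted p = 0.00233) and Batf3 by -0.79 (0.00437, on 46 reads in dKO and 132 in WT). Fosl1 and Batf did not pass, at -0.49 (95% interval -1.01 to 0.04) and 0.17 (-0.02 to 0.36). The median difference of the members was -1.24, against -0.01 over all genes tested.

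The dKO library whose genotype field reads wild type held the highest level of the 3 dKO libraries for 9 members and the lowest for Batf. Without it, Fosl1 passed at -0.79 (limma adjusted p = 0.000179) and Batf at 0.26 (0.00656), and the count was 10 members, 9 lower and 1 higher. Calls over all genes rose too, from 4381 of 10721 genes tested to 5277 of 10735. Fosb was then at -6.45 and Fos at -5.29, with limma adjusted p of 4.19e-08 and 2.71e-07. The sort gene Ly6a and the monocyte and macrophage markers moved with the members. Of that list's 12 genes, 11 were lower in dKO and 0 higher, and its summed level ran from 123 to 135 FPKM in dKO and from 810 to 844 FPKM in WT (the lysozyme gene Lyz2 alone averaged 49.9 ± 6.75 FPKM in dKO and 454 ± 13.6 FPKM in WT, SD, n = 3 each). All 8 megakaryocyte markers were lower as well, summing to 48.5 to 98.6 FPKM in dKO and 219 to 241 FPKM in WT. Neutrophil markers went both ways, 5 higher and 6 lower of 12, at 11066 to 11329 FPKM in dKO against 8200 to 8559 FPKM in WT. Of 8 mast cell and basophil markers 6 were lower and 0 higher, at 89.0 to 101 FPKM in dKO and 177 to 185 FPKM in WT. Of 7 T and NK cell markers 1 was tested and was higher, Nkg7, with 87.3 FPKM in dKO against 67.3 FPKM in WT. The list summed to 84.6 to 90.5 FPKM in dKO and 67.5 to 68.0 FPKM in WT. Below the minimum, Cd3e averaged 0 FPKM in dKO and 0.0355 FPKM in WT, and Cd4 0.498 and 0.0860 FPKM. The part of these markers in the AP-1 differences was not tested.

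Among 15 other bZIP partners and relatives, 13 were tested, and 4 were higher and 4 lower in dKO, with a median of 0.03. The shares over all genes tested were 18% higher and 22.9% lower. Maf, a bZIP factor of macrophages, was lower, at 0.230 ± 0.140 FPKM in dKO against 4.18 ± 0.184 FPKM in WT (SD, n = 3 each). Jdp2, a JUN-binding repressor that lies beside Fos, was higher, at 42.3 ± 0.919 FPKM in dKO against 32.6 ± 1.81 FPKM in WT, and so was the stress factor Atf4, at 304 ± 25.8 FPKM in dKO against 224 ± 0.0776 FPKM in WT. Of 19 kinases and transcription factors acting on AP-1, 4 were higher and 6 lower, with a median of -0.03. The lower ones included Elk3 (8.31 ± 1.09 FPKM in dKO and 17.8 ± 0.431 FPKM in WT) and Elk4 (5.53 ± 0.233 and 7.32 ± 0.343 FPKM). Mef2d was at -0.33 and the kinase ERK1 (Mapk3) at -0.26 on the log2 scale. The serum response factor gene Srf had a higher mean in dKO (32.0 ± 0.578 FPKM, against 27.1 ± 0.693 FPKM in WT). So had the kinase gene Map2k4 (21.9 ± 0.884 FPKM in dKO and 18.4 ± 0.998 FPKM in WT). Of 16 AP-1 target genes tested, 12 were lower and 1 higher, with a median of -0.98. The chemokine Ccl2 averaged 1.0 ± 0.163 FPKM in dKO and 14.5 ± 0.511 FPKM in WT. Vim differed by -1.41, the heme oxygenase gene Hmox1 by -2.17 and the MAP kinase phosphatase gene Dusp1 by -2.24, with limma adjusted p from 1.92e-07 to 4.92e-05 for these 4 targets. Monocyte and macrophage markers were lower in the same libraries, and their part in the target differences was not tested.

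PGE1 divided the FOS family. Against DMSO, Fosb was 139-fold lower after PGE1, the largest difference of all genes tested on the log2 scale, while Fosl2 was 3.81-fold higher and Fos did not pass. Of the 10 members, 2 were higher and 5 lower after PGE1 (limma, 11242 genes), where 23.6% of all genes tested were higher and 25.5% lower. In the JUN family Jund was 4.53-fold lower and Jun 1.22-fold higher. Atf3 was 2.0-fold lower, Batf 1.34-fold and Batf3 2.63-fold.

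Fosb differed by -6.00 (SE 0.0688, limma adjusted p = 4.98e-10), PGE1 minus DMSO, and Fosl2 by 1.86 (SE 0.0858, adjusted p = 1.53e-06). Fos differed by -0.06 (95% interval -0.31 to 0.20), and its sign turned without PGE1 replicate 1 (0.03) or DMSO replicate 1 (0.02), where it did not pass either. Jund differed by -2.16 (SE 0.0840, limma adjusted p = 5.86e-07) and Jun by 0.28 (SE 0.0692, 0.00980). Junb was at 0.15 (95% interval -0.01 to 0.32) and Fosl1 at -0.24 (-0.65 to 0.16), and neither passed. Jun lost its call when all 14 libraries shared the fit (limma adjusted p = 0.305). Atf3 differed by -0.94 (limma adjusted p = 0.000143), Batf by -0.39 (0.00245) and Batf3 by -0.71 (0.00848, on 28 reads after PGE1 and 77 after DMSO). The members' median was -0.32, against 0.01 over all genes.

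Without the DMSO library whose genotype field reads deficient, 7 members passed, with Fosb at -6.06, Fosl2 at 1.77 and Jund at -2.24. Without PGE1 replicate 2 the count was 8, as Fosl1 passed at -0.43 (limma adjusted p = 0.0288). It was also 8 without PGE1 replicate 1 and after quantile normalization, where Junb passed at 0.21 and 0.23 (limma adjusted p = 0.0395 and 0.0116). Neutrophil markers moved with these differences, 9 of 12 lower and 0 higher, at a summed 1943 to 2975 FPKM after PGE1 and 5355 to 6367 FPKM after DMSO. Of the 12 monocyte and macrophage markers, 8 were lower and 2 higher, while their sum overlapped, at 839 to 1069 FPKM after PGE1 and 826 to 969 FPKM after DMSO. Of 9 mast cell and basophil markers, 5 were higher and 2 lower, at 339 to 451 FPKM after PGE1 and 347 to 362 FPKM after DMSO. Of 7 T and NK cell markers 1 was tested and was lower, Nkg7, at 10.4 FPKM after PGE1 and 42.2 FPKM after DMSO, and the list summed to 8.43 to 17.3 FPKM after PGE1 and 40.2 to 47.3 FPKM after DMSO, while Cd3e averaged 0.382 FPKM after PGE1 and 0.0431 FPKM after DMSO. The part of these markers was not tested.

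Of 13 bZIP partners tested, 6 were higher after PGE1 and 2 lower, with a median of 0.02. Among all genes tested, 23.6% were higher after PGE1 and 25.5% lower. Cebpb, a bZIP factor of myeloid cells, averaged 295 ± 60.02 FPKM after PGE1 and 132 ± 14.4 FPKM after DMSO, and Bach1, a repressor that binds Maf-type sites, averaged 22.8 ± 4.11 FPKM after PGE1 and 13.8 ± 1.84 FPKM after DMSO (SD, n = 3 each). Maf and Atf4 were lower, at -1.02 and -0.53. Of 19 upstream genes, 5 were higher, among them Mef2d (0.45) and the kinase MSK1 (Rps6ka5, 0.53), and 2 were lower, Srf (-0.33) and the kinase JNK1 (Mapk8, -0.32), with a median of 0.05. Of 19 targets, 13 were lower and 5 higher, with a median of -0.76. The collagenase gene Mmp13 averaged 1.52 ± 0.137 FPKM after PGE1 and 21.2 ± 1.99 FPKM after DMSO, and the cyclin gene Ccnd1 averaged 0.713 ± 0.206 FPKM after PGE1 and 6.76 ± 0.382 FPKM after DMSO. Dusp1 differed by -1.19, whereas the angiogenic factor gene Vegfa was higher by 1.15, with limma adjusted p from 1.41e-07 to 8.08e-06 for these 4.

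After PGE2, Fos was the member that was higher than after DMSO, and Jund was again lower. Of the 10 members, 1 was higher after PGE2 than after DMSO and 3 were lower (limma, 11242 genes), where 0.996% of all genes tested were higher and 4.57% lower. Fos was 1.89-fold higher, Jund 3.29-fold lower, Atf3 1.81-fold lower and Fosb 1.33-fold lower. Fos differed by 0.92 (SE 0.127, limma adjusted p = 0.00428), Jund by -1.70 (SE 0.0939, 3.79e-05), Atf3 by -0.80 (SE 0.118, 0.00623) and Fosb by -0.40 (SE 0.0770, 0.0207).

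The group has 2 libraries, and leaving out either changed the calls, in fits where the lone PGE2 library is assumed to vary like the DMSO and PGE1 ones. Without PGE2 replicate 2 only Jund passed, with Fos at 0.86 (limma adjusted p = 0.0716), and without PGE2 replicate 1 Fos and Jund passed. Without the DMSO library with the discordant genotype field all 4 passed, with Fos at 1.0 and Jund at -1.78. Fosb also lost its call without DMSO replicate 2 or 3 (limma adjusted p = 0.0989 and 0.0962). Fosl2 (0.30, 95% interval 0.08 to 0.52), Jun (0.09, -0.09 to 0.27), Junb (0.07, -0.11 to 0.26), Fosl1 (0.10, -0.35 to 0.56), Batf (0.15, -0.04 to 0.34) and Batf3 (0.20, -0.24 to 0.65) did not pass. The members' median was 0.10, against 0.00 over all genes.

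Of the other lists, 1 of 13 bZIP partners was lower after PGE2, the small Maf gene Mafk (14.9 ± 0.262 FPKM after PGE2, n = 2, and 18.7 ± 1.02 FPKM after DMSO, n = 3, SD), and 0 were higher. Of 19 upstream genes 0 passed by limma, and of all genes tested 0.996% were higher and 4.57% lower. Of 19 targets, 7 were lower and 1 higher, with a median of -0.17. Mmp13 averaged 1.64 ± 0.0657 FPKM after PGE2 and 21.2 ± 1.99 FPKM after DMSO, and the osteopontin gene Spp1 averaged 130 ± 9.14 FPKM after PGE2 and 637 ± 5.46 FPKM after DMSO. Dusp1 differed by -0.93 and Vim by -0.90. Monocyte markers were 3 higher and 1 lower of 12, summing to 1080 to 1087 FPKM after PGE2 and 826 to 969 FPKM after DMSO. Of 12 neutrophil markers 1 was higher and 0 lower (median 0.47), at 7828 to 7931 FPKM after PGE2 and 5355 to 6367 FPKM after DMSO, and of 9 mast cell and basophil markers 0 were higher and 1 lower, at 252 to 253 FPKM after PGE2 and 347 to 362 FPKM after DMSO. The part of these markers was not tested.

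**Figure D2:**
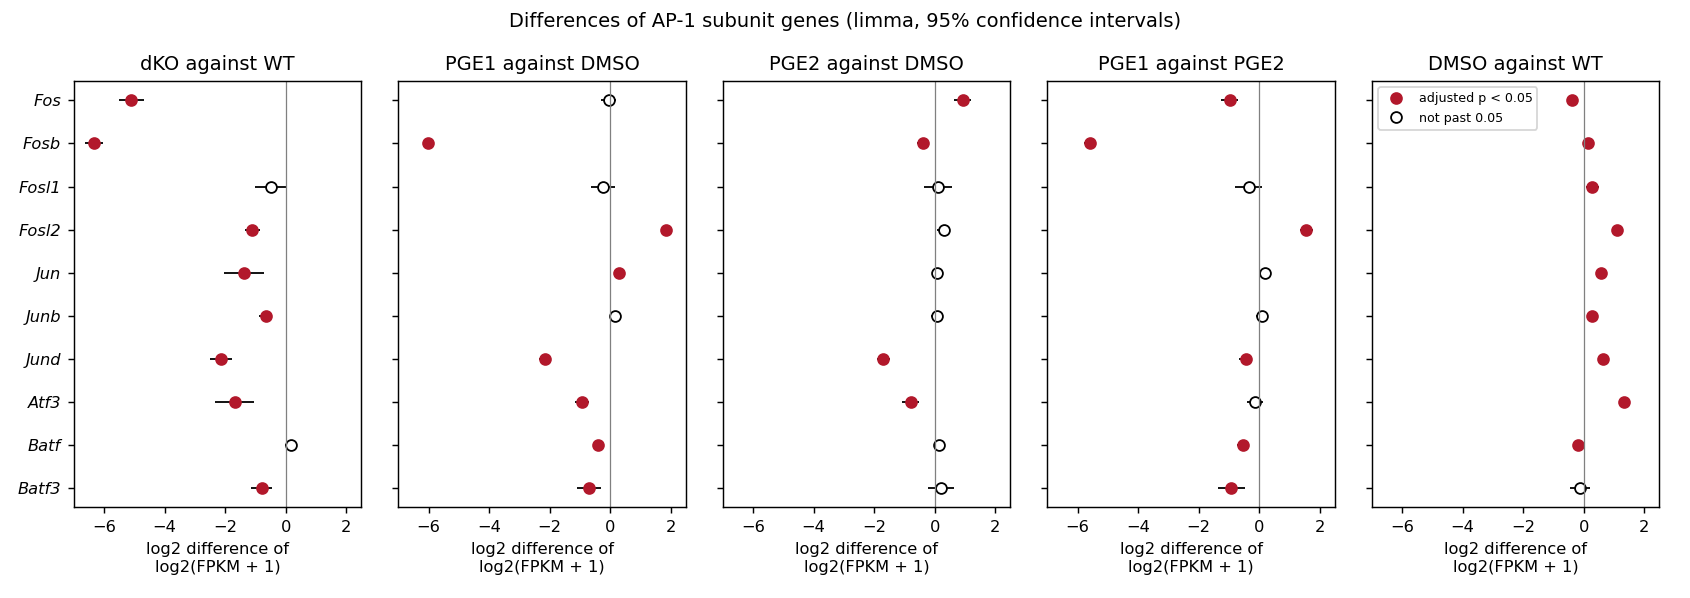
Difference of each member on the log2(FPKM + 1) scale in 5 comparisons, with 95% intervals and filled symbols for an adjusted p below 0.05. Fosb stands at -6.32 in dKO against WT and at -6.00 after PGE1, but at -0.40 after PGE2.

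PGE1 and PGE2 differ in structure by an additional unsaturated carbon-carbon bond in a side chain of PGE2, and they were used at the same dose (20 µM) and time (6 h). For this 1 pair of compounds, 6 of the 10 members differed, 1 higher and 5 lower after PGE1 than after PGE2 (limma, adjusted over 11242 genes), where 27.2% of all genes tested were higher and 26.7% lower. Fosb was 105-fold lower after PGE1, again the largest difference of all genes tested on the scale of log2(FPKM + 1), and Fosl2 was 3.06-fold higher. Fos was 1.97-fold lower after PGE1, Batf 1.5-fold, Batf3 3.26-fold and Jund 1.38-fold.

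On the log2 scale, PGE1 minus PGE2, Fosb differed by -5.60 (95% interval -5.78 to -5.43, limma adjusted p = 2.39e-09). Fosl2 differed by 1.56 (1.34 to 1.78, 9.99e-06) and Fos by -0.98 (-1.26 to -0.69, 0.000281). Jund, lower than DMSO after both, still differed by -0.45 (-0.67 to -0.24, limma adjusted p = 0.00343), and Batf and Batf3 differed by -0.54 (-0.73 to -0.35) and -0.92 (-1.36 to -0.48). The other 4 did not pass. These were Jun at 0.19 (95% interval 0.01 to 0.36, adjusted p = 0.0681), Junb at 0.08 (-0.11 to 0.26), Atf3 at -0.14 (-0.41 to 0.13) and Fosl1 at -0.35 (-0.80 to 0.10). A p that misses the threshold does not show that the compounds act alike on them. Without PGE1 replicate 2, Fosl1 and Atf3 passed as well (limma adjusted p = 0.0160 and 0.0158), and after quantile normalization Jun and Junb did (0.00965 and 0.0349).

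Over all genes tested, 27.2% were higher after PGE1 than after PGE2 and 26.7% were lower. Of 13 bZIP partners 6 were higher and 3 lower after PGE1, with a median of -0.03. Mafk was higher by 0.62 and Cebpb by 1.08, while Maf was lower (-1.22) and Atf4 lower (-0.78). Of 19 upstream genes 4 were higher and 4 lower, with a median of -0.03, and the 4 with the smallest p were Srf (-0.43), Mapk8 (-0.57), Mef2d (0.28) and the JNK kinase gene Map2k7 (0.21). Of 19 targets 5 were higher and 9 lower, with a median of -0.06. Ccl2 averaged 1.35 ± 0.570 FPKM after PGE1 (n = 3) and 19.1 ± 0.176 FPKM after PGE2 (n = 2), and the urokinase gene Plau averaged 1.82 ± 0.458 FPKM after PGE1 and 8.49 ± 0.255 FPKM after PGE2 (SD). Ccnd1 differed by -2.02 and Hmox1 by 1.60. Mmp13, lower than DMSO after both compounds, did not pass between them. Neutrophil markers were 10 lower of 12, at a summed 1943 to 2975 FPKM after PGE1 and 7828 to 7931 FPKM after PGE2, and monocyte markers 9 lower and 1 higher of 12. Mast cell and basophil markers were 6 higher and 1 lower of 9, at 339 to 451 FPKM after PGE1 and 252 to 253 FPKM after PGE2. The part of these markers was not tested.

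**Figure D3:**
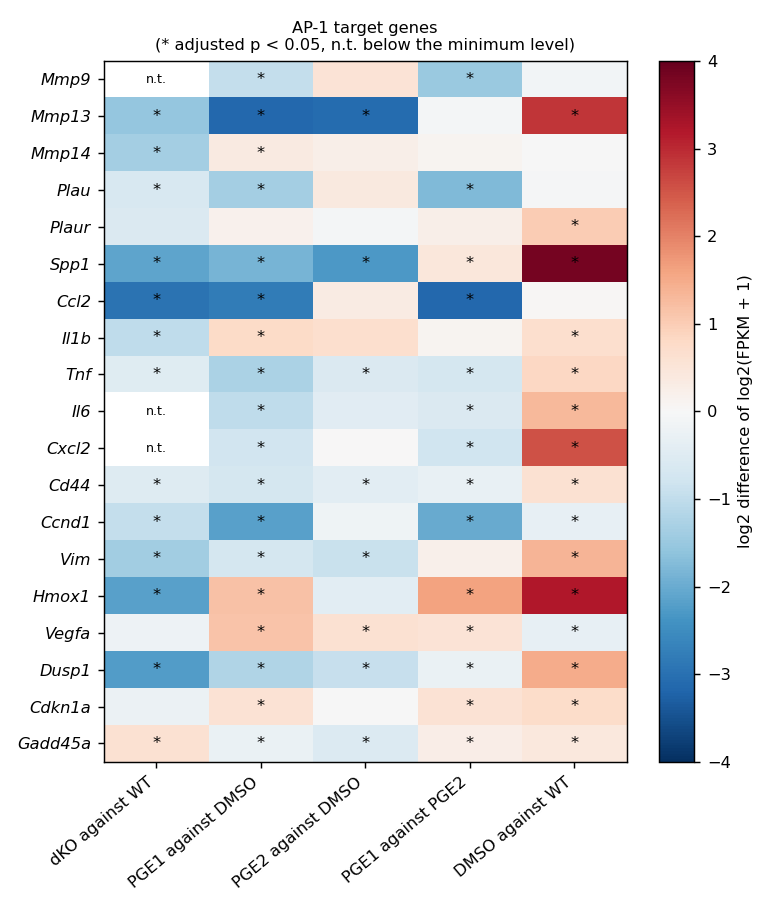
Differences of AP-1 target genes on the log2(FPKM + 1) scale (colour, blue lower and red higher in the group named first) in the 5 comparisons, with stars for an adjusted p below 0.05. Mmp13 is lower after both prostaglandins (-3.14 and -3.07), whereas Ccl2 and Ccnd1 are lower after PGE1 (-2.80 and -2.19 against DMSO).

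The vehicle-treated libraries differed from untreated WT cells in most members. Of the 10 members, 7 were higher and 2 lower after DMSO (limma, 11115 genes), where 26% of all genes tested were higher and 30.7% lower. When all 14 libraries shared the fit, 4 members passed, all higher (Fosl2, Junb, Jund and Atf3), with Fos and Jun at limma adjusted p of 0.0595 and 0.0547. Atf3 was 2.71-fold higher after DMSO and Fosl2 2.36-fold. Vehicle, the added treatment time and depth cannot be told apart here. On the log2 scale Atf3 differed by 1.31 (limma adjusted p = 1.55e-06), Fosl2 by 1.11 (1.92e-05), Jund by 0.63 (0.000197), Jun by 0.56 (3.59e-05) and Junb by 0.29 (0.00131). Fos was lower by -0.39 (limma adjusted p = 0.00244) and Batf by -0.17 (0.0301), and Batf3 did not pass (-0.12, 95% interval -0.46 to 0.22). The small differences of Fosb (0.15, limma adjusted p = 0.0459) and Fosl1 (0.28, 0.0271) were not stable, nor was that of Batf. Fosb lost its call when any library but DMSO replicate 1 was left out, Fosl1 without any WT library or DMSO replicate 3, and Batf without WT replicate 1 or 2 or DMSO replicate 2 or 3. The members' median was 0.29, against -0.03 over all genes.

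Of 13 bZIP partners 8 were higher and 2 lower after DMSO, where 26% of all genes tested were higher and 30.7% lower. The partners were led by Cebpb (0.74), Mafk (0.52), the stress gene Ddit3 (0.77) and the small Maf gene Mafg (0.43). Of 19 upstream genes 1 was higher and 8 lower, led by Rps6ka5 (-0.38), Mapk8 (-0.35), Men1 (-0.21), whose protein binds JunD, and Elk3 (-0.26). Of 19 targets 13 were higher and 2 lower, with a median of 0.74. Spp1 averaged 637 ± 5.46 FPKM after DMSO and 44.3 ± 1.75 FPKM in WT, and Hmox1 averaged 193 ± 9.36 FPKM after DMSO and 20.1 ± 0.641 FPKM in WT (SD, n = 3 each). Cxcl2 differed by 2.56 and Dusp1 by 1.47. Of 12 neutrophil markers 4 were higher and 7 lower, at a summed 5355 to 6367 FPKM after DMSO and 8200 to 8559 FPKM in WT. Of 9 mast cell and basophil markers 6 were higher and 1 lower, at 347 to 362 FPKM after DMSO and 177 to 185 FPKM in WT. The part of these markers was not tested. The DMSO libraries serve as the level for both prostaglandins, so those comparisons share them.

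Within families, the balance of the genes shifted. Summed over its 4 genes, the FOS family reached 9.63 ± 3.67 FPKM in dKO and 270.3 ± 4.08 FPKM in WT, and 171 ± 13.7 FPKM after PGE1, 335 ± 16.0 FPKM after PGE2 and 255 ± 8.24 FPKM after DMSO (SD). Fosb made up 3.22% of that sum in dKO and 38.9% in WT, and 0.491% after PGE1, 26.4% after PGE2 and 46.0% after DMSO. Fosl2 made up 30.3% after PGE1, 5.04% after PGE2 and 5.32% after DMSO. The JUN family summed to 82.8 ± 19.9 FPKM in dKO and 246 ± 2.40 FPKM in WT, and to 176 ± 9.94 FPKM after PGE1, 188 ± 6.28 FPKM after PGE2 and 363 ± 22.6 FPKM after DMSO (SD). Jund was 45.3% of it in dKO and 67.5% in WT, and 32.5% after PGE1, 41.8% after PGE2 and 71.3% after DMSO. Jund thus led the family in WT and DMSO libraries, and Junb in PGE1 libraries.

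**Figure D4:**
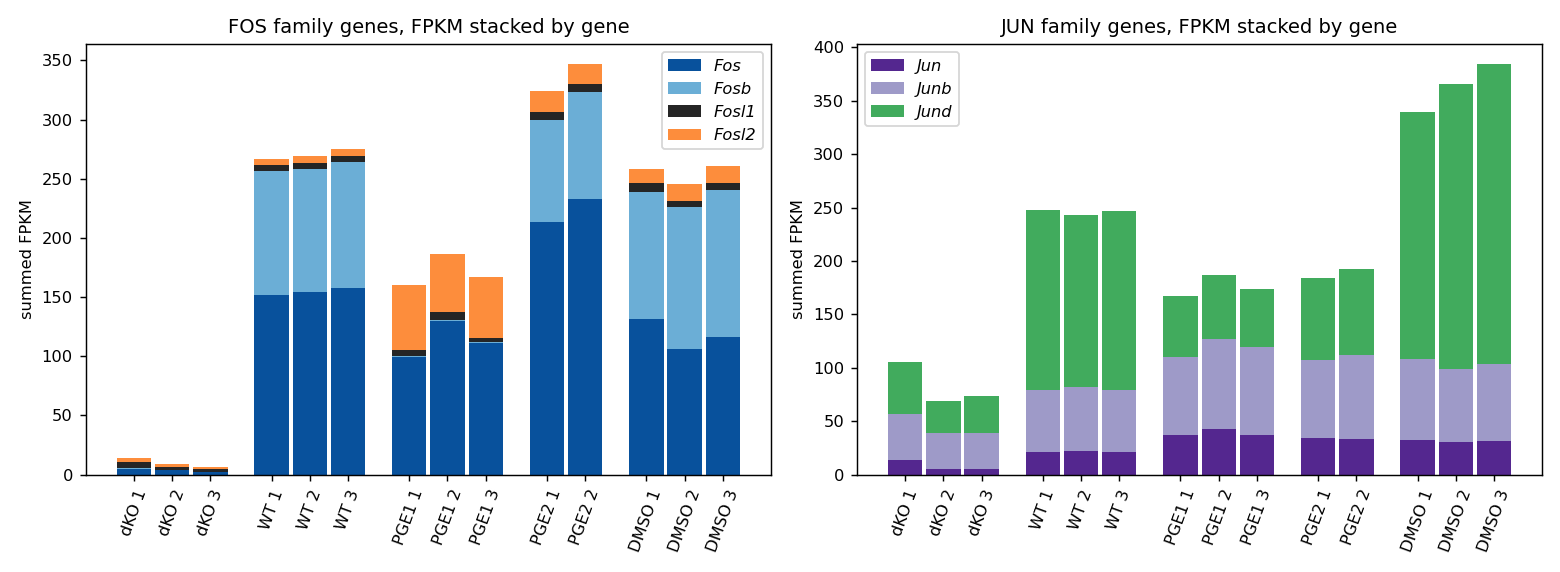
Summed FPKM of the FOS family (left) and JUN family (right) in each library, stacked by gene. The Fosb layer is 38.9% of the FOS sum in WT and 0.491% after PGE1, and the Jund layer is 71.3% of the JUN sum after DMSO and 32.5% after PGE1.

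Ratios within a library do not depend on its scaling. The ratio of Fosb to Fos, a ratio of FPKM, was 0.115, 0.105 and 0.0272 in dKO, against 0.693, 0.674 and 0.675 in WT. It was 0.00809, 0.00711 and 0.00714 after PGE1 and 0.407 and 0.386 after PGE2, against 0.820, 1.13 and 1.07 after DMSO. In dKO both genes were low, whereas after PGE1 the ratio was low while the Fos libraries overlapped those of DMSO. The ratio of Jund to Junb had geometric means of 1.0 in dKO and 2.83 in WT, and 0.716 after PGE1, 1.04 after PGE2 and 3.60 after DMSO. Neither ratio overlapped between compared groups (two-sided exact permutation p = 0.1 with 3 against 3 libraries and 0.2 with PGE2, the smallest each design allows, over 20 ratio tests with adjusted p of at least 0.182). The ratio of Jund to Jun overlapped between DMSO and WT (geometric means 8.14 and 7.81, exact permutation p = 0.6).

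**Figure D5:**
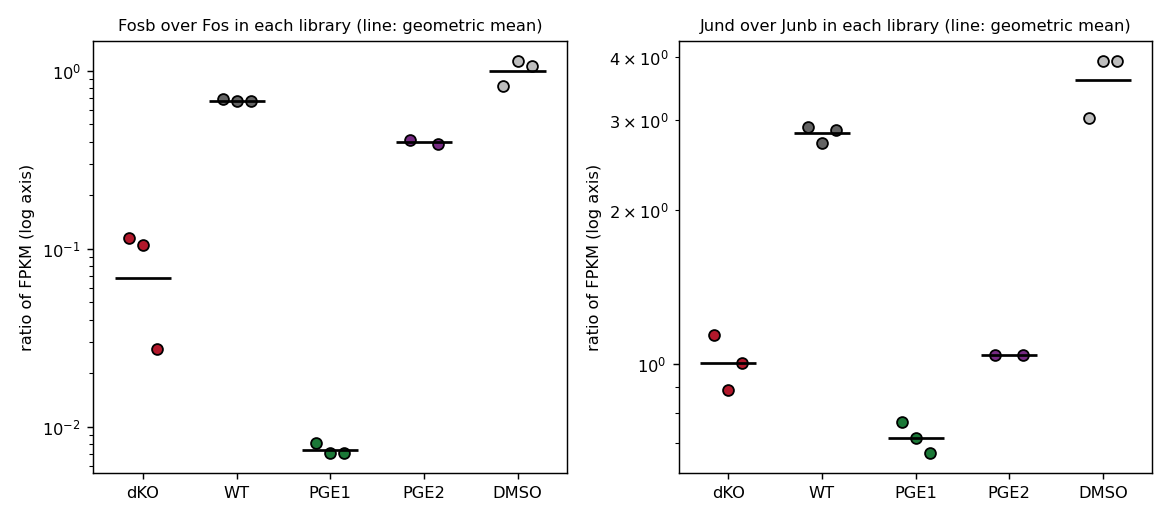
Ratios of FPKM, Fosb over Fos (left) and Jund over Junb (right), in each library on log axes, with lines for geometric means. Fosb over Fos is lowest after PGE1 (0.00743), and Jund over Junb is below or near 1.04 in dKO, PGE1 and PGE2 libraries.

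Of the genes next to Fosb and Fos, Jdp2 was higher in dKO, as given above, and the others had these levels. Ercc1, a repair gene that follows Fosb on chromosome 7, averaged 11.2 ± 1.14 FPKM in dKO and 11.8 ± 0.552 FPKM in WT, and 11.1 ± 1.70 FPKM after PGE1, 12.2 ± 0.834 FPKM after PGE2 and 11.6 ± 1.70 FPKM after DMSO (SD). Rtn2, on the other side of Fosb, averaged at most 0.166 FPKM in each group. Tmed10, next to Fos, averaged 39.1 ± 0.963 FPKM in dKO and 38.0 ± 0.585 FPKM in WT, and 22.3 ± 0.327 FPKM after PGE1 and 29.9 ± 0.945 FPKM after DMSO (SD, n = 3 each).

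Likeness of pattern was taken as Pearson's r of log2(FPKM + 1) over the 14 libraries, among 10524 genes, and is a description, since the 5 groups and their depths are shared by all genes. Fos was most like the monocyte gene Lyz2 (0.992), then Plekha1 (0.989) and Clec4a1 (0.988). Fosb was most like the macrophage gene Adgre1 (0.991), then Ccl2 (0.986) and Lpl (0.984). Spearman's rank correlations were lower, at 0.837, 0.684 and 0.780 for these genes with Fosb. Those with Fos were 0.855, 0.899 and 0.815 for Lyz2, Plekha1 and Clec4a1. The genes closest to this pair thus include markers of monocytes and macrophages, which were lower in dKO as well, and the part of such cells was not tested. Fosl2 was most like Cd14 (0.994), Ptprn (0.993) and Arrdc3 (0.993), and Cd14, the lipopolysaccharide co-receptor gene, averaged 297 ± 42.1 FPKM after PGE1 and 46.6 ± 1.63 FPKM after DMSO (SD, n = 3 each). Fosl1 was most like Gp9 (0.926), Tmem51 (0.919) and Lcn2 (0.903). Jun and Junb were each among the 3 closest genes of the other (0.987), with Tpm4 (0.986 and 0.989) and Nfil3 (0.980 and 0.989). Jund was closest to Igf2bp2 (0.976), Srgap3 (0.953) and Glipr1 (0.953), Atf3 to Anxa4 (0.991), Dusp1 (0.989) and Plek (0.989), Batf to Wdr74 (0.983), Mgl2 (0.981) and Mphosph10 (0.981), and Batf3 to Snora70 (0.923), Egr1 (0.918) and Ccl2 (0.917). Between members, Fosb ran closer to Batf3 (0.887) and Jund (0.877) than to Fos (0.693), and Fosl2 ran opposite to Batf (-0.91).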

How the data were processed

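The deposited values are FPKM per gene symbol, made by the authors from Illumina libraries of total RNA with CASAVA 1.8, TopHat and Cufflinks on the mouse build mm9, per the submitters' processing notes. Read length, strand handling, gene annotation and the treatment of shared reads are not given in the sources used. In all 19057 genes with reads the values were whole multiples of what 1 read is worth (100%, within 0.0001 of a read), which gave reads per gene and library. These cover counting error only and were used to state depth, not for tests.

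Groups follow the sample titles. The tests, two-sided, used limma (version 3.58.1, R 4.3.3) with lmFit and a trended eBayes. Values were taken as log2(FPKM + 1), genes averaging below 1 FPKM in a fit were dropped, p-values were adjusted over all genes of the fit by Benjamini-Hochberg, and the threshold was 0.05. All 10 members passed this minimum in every fit. The fits were the 6 untreated libraries, the 8 treated libraries, and DMSO with WT. Scripts were tested on simulated data. Folds are ratios of mean FPKM. Tcf7 and Lef1, below the minimum, and the within-library ratios had exact permutation tests. Alternatives were a pseudocount of 0.1, no minimum or 5 FPKM, quantile or median-of-ratios scaling, a replicate block, 1 fit of all 14 libraries, and leaving out each library. Python 3.11.15 (numpy 2.4.6, pandas 2.3.3, scipy 1.17.1, matplotlib 3.10.9) did the rest.

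The members and lists were chosen with earlier results of these data known. Named genes were all members, Tcf7 and Lef1, up to 4 genes of each list with the smallest p past the threshold per comparison, and for each member the 3 genes of highest r, clone-type symbols left out. A gene the rule names is not reported here. Genes next to members, Prdx2, markers, Ddx3y and Xist were named after their values were seen.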

Additional observations from a re-analysis of the deposited data

How the results depend on the processing

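In dKO against WT the count of members past the threshold stayed at 8 under 6 alternatives and was 5 with a minimum of 5 FPKM, where fewer members were tested; leaving out 1 library gave 8 to 10. Of all genes called there, 44.1% were higher in dKO, against 60.2% with quantile normalization and 56.1% with median-of-ratios scaling; no member was higher in dKO under either. PGE1 against DMSO gave 7 members, 7 to 8 with 1 library left out and 6 to 8 otherwise. PGE2 against DMSO gave 4 members, 1 to 4 with 1 library left out (2 without PGE2 replicate 1, 1 without PGE2 replicate 2), where all genes called numbered 626 and 125 to 520 (1207 in the fit of 14 libraries); the cause was not tested. PGE1 against PGE2 gave 6, with 6 to 8 when 1 library was left out, 8 after quantile normalization and 5 with a minimum of 5 FPKM. DMSO against WT gave 9, 6 to 9 with 1 library left out, and 4 when all 14 libraries shared the fit, where the cause was not tested. Fos after PGE1 against DMSO, which did not pass, ran from -0.16 to 0.0328 with 1 library left out (0.0245 without DMSO replicate 1, 0.0328 without PGE1 replicate 1), and Batf3 in DMSO against WT, which did not pass, ran from -0.24 to 0.0110 (without WT replicate 1). Atf3 after PGE2 lost its call without PGE2 replicate 1 (limma adjusted p = 0.0625) or 2 (0.0816) and in the fit of 14 libraries (0.0579). Deviations of same-numbered replicates from their group means correlated at -0.24 to 0.25, with both signs. With so few libraries a group, these values cannot decide whether the numbers pair the samples. A replicate block gave 8, 7, 3, 6 and 8 members in the 5 comparisons in the order above; under it Fosb lost its call after PGE2 (limma adjusted p = 0.0653) and in DMSO against WT (0.0538), and all genes called after PGE2 numbered 269. Scarce members limit precision, above all Batf3 with 28 reads over the 3 PGE1 libraries.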
